A study of Mus musculus with 6 samples.

Results

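The Gadd45 stress genes are a family of 3 paralogs, Gadd45a, Gadd45b and Gadd45g, among 10698 genes that the array's platform annotation names by a single symbol. Their members were taken as all probes with exactly one of these 3 symbols, which gave 6 probes, a pair for each gene, of 16281 on the array. All 6 probes had a value on every array. The cells were RAW 264.7, an established macrophage-like line from mouse (written RAW 264.4 in places in the labels), either untreated or given lipopolysaccharide (LPS, 100 ng/ml) together with LPS-binding protein (LBP, 100 pM), and both were cultured for 2 h. Each of 6 two-colour arrays carried 1 treated and 1 untreated RNA. On 3 of them, called forward arrays here, treated RNA was labelled with Cy5, and on 3 swapped arrays with Cy3. Labels number the forward and the swapped arrays alike, as sets 1, 2 and 3. LPS or LBP alone was not analysed here. The labels do not say that the sets came from separate cultures, so the p-values rest on spread between these sets, which may be technical. The test used draws each feature's spread towards that of all features.

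GADD45 proteins are small acidic nuclear proteins with no known enzyme activity of their own, which act by binding partners. They bind and switch on the kinase MAP3K4, upstream of the p38 and JNK kinases, and they bind the replication clamp PCNA, the inhibitor p21 and the CDK1 and cyclin B1 complex, by which they slow the cell cycle at its G2/M step. Gadd45a is the classical member, induced by DNA damage through p53 and by other stresses. Gadd45b was first described as a primary response gene of myeloid differentiation and is a target of NF-κB. Gadd45g was found as a cytokine-induced early gene of lymphocytes.

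Values are log2 ratios of treated over untreated, turned so that a positive value means more transcript after LPS and LBP, and a set is the mean of its 2 arrays with swapped dyes. A ratio holds no level, so the order of the genes below is an order of changes and not of abundance. "Rose", "fell", "higher" and "lower" are used for adjusted p under 0.05 in limma, Benjamini-Hochberg adjusted over all features. In whole populations of cells, a change in the number of cells with a transcript and a change in its amount per cell cannot be told apart. Among 13224 probes measured on all arrays, 15.0% passed this threshold, 7.50% higher and 7.45% lower. Among 11231 features made by averaging the probes of a gene, 14.8% passed. Macrophage markers had 2 higher and 2 lower genes among 7 tested. None of 5 lymphocyte and 3 fibroblast markers passed in limma, with 1 of each at an unadjusted p under 0.05, and whether these cells' transcripts were present cannot be read from ratios.

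The promoters of the 3 genes are shown because Gadd45a and Gadd45b rose together while Gadd45g did not. The 250 bases before each annotated start are from RefSeq, build GRCm38.p6, at chr6:67037408-67037657 on the minus strand for Gadd45a, chr10:80929841-80930090 on the plus strand for Gadd45b and chr13:51846425-51846674 on the plus strand for Gadd45g. They are written 5′ to 3′ along the gene, and capitals mark every match to the motifs named after them.
Gadd45a: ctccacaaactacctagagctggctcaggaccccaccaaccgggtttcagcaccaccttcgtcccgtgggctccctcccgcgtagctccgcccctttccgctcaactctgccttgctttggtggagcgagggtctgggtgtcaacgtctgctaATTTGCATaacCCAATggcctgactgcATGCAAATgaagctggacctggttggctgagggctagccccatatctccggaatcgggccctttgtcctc
Gadd45b: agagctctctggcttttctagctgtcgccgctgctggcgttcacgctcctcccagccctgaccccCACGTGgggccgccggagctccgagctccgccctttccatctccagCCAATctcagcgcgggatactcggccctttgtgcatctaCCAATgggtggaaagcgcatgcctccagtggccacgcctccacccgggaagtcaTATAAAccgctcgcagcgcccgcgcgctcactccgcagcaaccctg
Gadd45g: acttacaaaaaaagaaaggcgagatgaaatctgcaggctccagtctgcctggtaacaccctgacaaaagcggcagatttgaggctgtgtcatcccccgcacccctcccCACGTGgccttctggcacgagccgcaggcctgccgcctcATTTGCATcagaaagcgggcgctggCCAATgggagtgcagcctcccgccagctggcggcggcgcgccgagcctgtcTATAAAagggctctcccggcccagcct

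Both strands were searched, and no marked match overlapped another. The octamer ATGCAAAT, the site of POU-family factors, occurred at 2 places in the Gadd45a window and 1 in that of Gadd45g, and in 1.60% of 32851 promoter windows of the same length. The CCAAT box (CCAAT, bound by NF-Y) occurred in all 3, at 2 places in Gadd45b, and in 33.8% of all windows. A TATA box (TATAAA) lay in Gadd45b and Gadd45g but not in Gadd45a, and in 12.4% of all windows. The E-box CACGTG, bound by MYC and related factors, lay once in each of these same 2 genes and in 6.02% of windows. The NF-κB motif, the AP-1 motif (TGANTCA), the CRE (TGACGTCA) and the CArG box of serum response factor had no match in any of the 3 windows, against 5.0%, 6.75%, 1.55% and 1.47% of all windows. None of these motifs was found in the Gadd45a and Gadd45b windows but not in that of Gadd45g. By distance, the octamers of Gadd45a began 97 and 70 bases before the start on either side of its CCAAT box at 86, and that of Gadd45g began at 103. The E-box began 185 bases before the start of Gadd45b and 142 before that of Gadd45g, and the TATA boxes began at 46 and 27. The windows held 59.2% G and C in Gadd45a, 65.2% in Gadd45b and 62% in Gadd45g, all above the median of 52.4% over all windows. A match is a description of the sequence and not a bound site.

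After 2 h with LPS and LBP, Gadd45a and Gadd45b rose on both of their probes, and Gadd45g changed little. The order of Gadd45a and Gadd45b changed with the probes compared and, for some of them, with dye orientation. With the probes of a gene averaged, Gadd45b rose 5.20-fold and Gadd45a 4.03-fold (limma adjusted p = 9.16e-06 and 3.71e-05). They ranked 22 and 33 from the top among 9472 named genes measured on all arrays. Of the 6 probes, 4 rose and 1 fell, where 15.0% of all probes passed in either direction. Gadd45g stood at -0.18 and ranked 8561, with 911 genes lower than it.

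Gadd45b, probe 10716, which the annotation ties to the RefSeq transcript, read 2.62, 3.06 and 2.62 on the forward arrays of sets 1, 2 and 3. On the swapped arrays it read 2.23, 2.28 and 2.16. The forward values all lay above the swapped ones, and every array showed a rise of over 4-fold. The mean was 2.49 ± 0.16 (SD, n = 3 sets), a 5.64-fold rise (limma adjusted p = 3.82e-06). The other Gadd45b probe, 7815, tied to an older GenBank entry, read 2.47, 2.55 and 2.11 on the forward arrays and 2.35, 1.96 and 2.13 on the swapped ones. Here the orientations overlapped. Its mean was 2.26 ± 0.14 (4.79-fold, n = 3 sets, limma adjusted p = 4.88e-06). Probe 10716 was the higher of the pair on 5 of 6 arrays, by 0.23 ± 0.20, a difference about as large as its own spread.

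Gadd45a, probe 13836, tied to the RefSeq transcript, read 2.39, 1.55 and 2.25 on the forward arrays of sets 1 to 3 and 2.84, 2.67 and 2.33 on the swapped ones. Its mean was 2.34 ± 0.26 (5.06-fold, n = 3 sets, limma adjusted p = 1.72e-05). The forward array of set 2 was the low one. Probe 77, tied to a GenBank entry, read 1.99, 0.85 and 1.62 on the forward and 1.74, 2.29 and 1.60 on the swapped arrays, with the same array lowest. Its mean was 1.68 ± 0.16 (3.20-fold, n = 3 sets, limma adjusted p = 1.83e-05). Probe 13836 exceeded probe 77 on 6 of 6 arrays, by 0.66 ± 0.11. A gap between the probe means of that size or more was found in 1.99% of the 1808 genes with several complete probes, whose median gap was 0.08. Both probes called the rise, but its size differed between them. Probe sequences were not used here, so whether the probes of a gene read the same part of its transcript was not tested.

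Gadd45g fell on one of its probes and showed no change of fixed direction on the other. Probe 9034, tied to a GenBank entry, read -0.37, -0.60 and -0.41 on the forward arrays and -0.55, 0.01 and -0.28 on the swapped ones. It was lower on 5 of 6 arrays, and its mean was -0.37 ± 0.09 (1.29-fold lower, n = 3 sets, limma adjusted p = 0.00559). That call ended without set 3 (-0.38, adjusted p = 0.0747) and on the swapped arrays alone (-0.27, adjusted p = 0.247). Probe 18424, tied to the RefSeq transcript, read -0.11, -0.40 and -0.23 on the forward and 0.33, 0.27 and 0.23 on the swapped arrays. It was negative on every array of one orientation and positive on every array of the other, and its mean was 0.015 ± 0.090 (n = 3 sets, limma adjusted p = 0.896). Probe 18424 lay above probe 9034 on 6 of 6 arrays, by 0.38 ± 0.18, and a gap of means of that size or more was found in 5.53% of genes with several probes.

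Averaging these probes gave Gadd45g a set value of -0.18, -0.18 and -0.17, with an SD of 0.0037, far below the SD of 0.086 and 0.090 of its single probes, because set 1 was the lowest set of one probe and the highest of the other. In limma the spread of a feature is drawn towards that of all features, so this SD did not enter alone. The standard error used was 0.044, and the averaged gene passed narrowly (limma adjusted p = 0.0450). The averaged call held in 3 of 12 alternative settings and ended when any set was left out (adjusted p from 0.0982 to 0.266). On the forward arrays alone the average was -0.35 (adjusted p = 0.0764) and on the swapped arrays alone 0.0015 (adjusted p = 0.991). The calls of Gadd45a and Gadd45b and of all 4 of their probes held in every setting tried, with adjusted p of at most 0.0446.

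**Figure D1:**
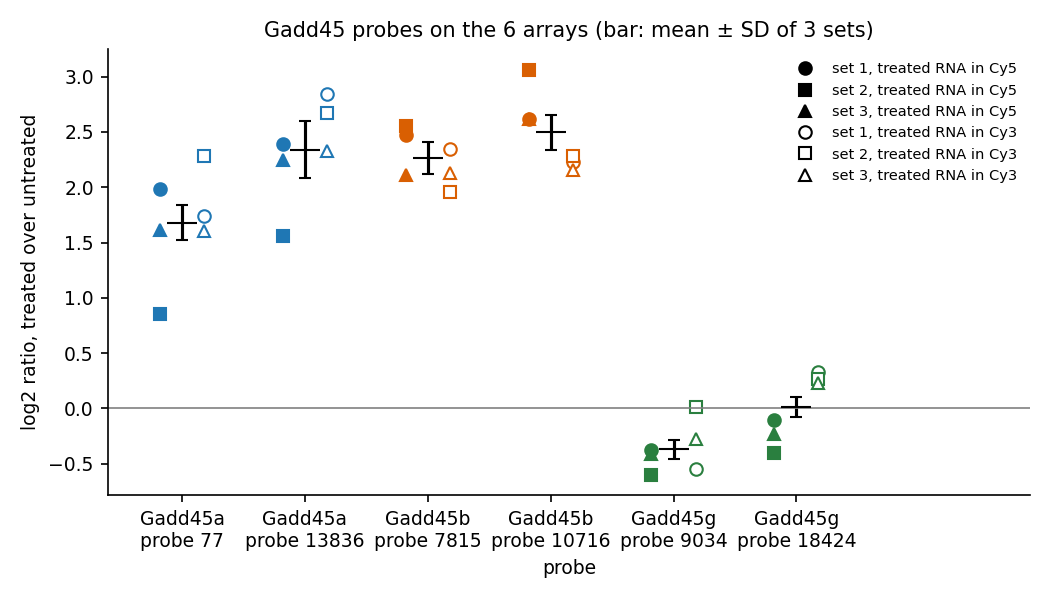
Log2 ratio of treated over untreated (y axis) for each of the 6 Gadd45 probes (x axis) on 6 arrays. Filled symbols are forward arrays (treated in Cy5), open symbols swapped arrays (treated in Cy3), shapes mark sets 1 to 3, and bars are the mean ± SD of 3 sets. The 4 probes of Gadd45a and Gadd45b lie between 0.85 and 3.06, above every Gadd45g value, and the filled and open symbols of Gadd45g probe 18424 lie on opposite sides of 0.

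How far a ratio followed the dye channel, whatever RNA was in it, was measured as the mean of the arrays of a set before the signs were turned, where a positive value leans to Cy5. It was -0.26 ± 0.06 for Gadd45g probe 18424 and -0.09 ± 0.20 for probe 9034. Before the turn, probe 18424 read below 0 on all 6 arrays. Of all 13224 complete probes, 13.9% followed the channels on every array in this way and 19.0% followed the treatment on every array. The mean channel part was also of opposite sign for the 2 paralogs that rose, though not in every set. It was 0.27 ± 0.10 and 0.12 ± 0.16 for Gadd45b probes 10716 and 7815, and -0.27 ± 0.26 and -0.19 ± 0.46 for Gadd45a probes 13836 and 77. In sets 1 to 3, probe 77 gave 0.12, -0.72 and 0.007, so its negative mean came from set 2. Probe 7815 gave 0.06, 0.30 and -0.01. Probes 10716 and 13836 kept their sign in every set. In limma over all probes the channel part passed for 0 of 13224 (0% called, 3038 at an unadjusted p under 0.05). The lowest unadjusted p among the members were 0.00462 for probe 18424 and 0.0103 for probe 10716, both with adjusted p = 0.165. The part of the dyes in the Gadd45g values was not tested beyond these figures.

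**Figure D2:**
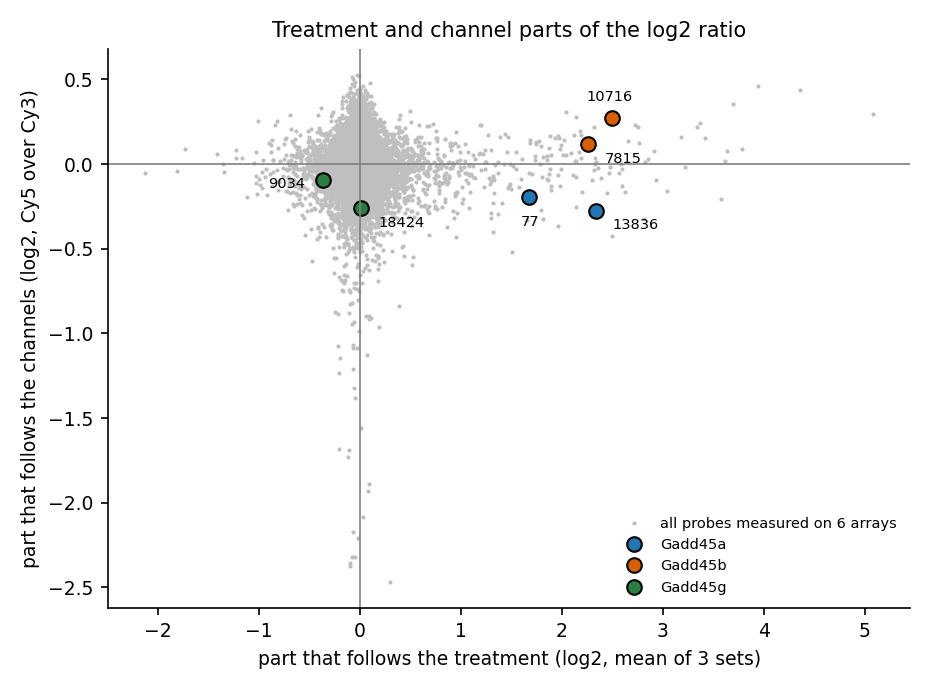
Each probe's log2 ratio split into the part that follows the treatment (x axis, mean of 3 sets) and the part that follows the channels (y axis, Cy5 over Cy3, mean of 3 sets). Grey points are the 13224 probes measured on all arrays and coloured points the 6 Gadd45 probes with their probe numbers. Gadd45a lies below and Gadd45b above the horizontal line at similar treatment parts, and Gadd45g probe 18424 lies at 0.015 on the treatment axis.

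The paralogs were then set against each other on the same array, where effects shared by the whole array cancel. The separation of Gadd45g from the others was known when the family was chosen, and its size is given as a description. Gadd45b exceeded Gadd45g by 2.55 ± 0.11 and Gadd45a exceeded it by 2.19 ± 0.21 (n = 3 sets), on 6 of 6 arrays each. Probe by probe, all 4 pairs of Gadd45b with Gadd45g were positive on every array, with means from 2.25 to 2.86. So were all 4 pairs of Gadd45a with Gadd45g, with means from 1.67 to 2.71. The smallest of these means was that of Gadd45a probe 77 less Gadd45g probe 18424, and the largest that of Gadd45b probe 10716 less Gadd45g probe 9034. No single array brought any of these 8 pairs below 1.25.

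Gadd45a and Gadd45b were not set apart in this way. With probes averaged, Gadd45b exceeded Gadd45a by 0.17, 0.62 and 0.31 in sets 1 to 3, a mean of 0.37 ± 0.23. On the forward arrays the difference was 0.35, 1.61 and 0.43, and on the swapped arrays it was -0.01, -0.36 and 0.18. The mean difference thus went from 0.80 in one orientation to -0.06 in the other. The forward array of set 2 gave the largest gap, since Gadd45a was lowest and Gadd45b highest on it. Of the 4 probe pairs, 3 had a positive mean and none was positive on all 6 arrays. The means ran from -0.08 ± 0.19 for Gadd45b probe 7815 less Gadd45a probe 13836 to 0.81 ± 0.27 for probe 10716 less probe 77. The others were 0.16 ± 0.38 for probe 10716 less probe 13836 and 0.58 ± 0.09 for probe 7815 less probe 77. Against the lower Gadd45a probe both Gadd45b probes were ahead by more than their spread, and against the higher one neither was. The sign of the difference between Gadd45b and Gadd45a thus changed with the probe pair. With dye orientation it changed for both pairs with probe 13836 and, narrowly, for the averaged genes. The pairs with probe 77 had positive means on the forward and the swapped arrays, 0.89 and 0.27 for probe 7815 and 1.28 and 0.35 for probe 10716. With 3 sets, a two-sided exact sign-flip permutation test cannot give a p below 0.25, so these differences are given as values without a test.

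**Figure D3:**
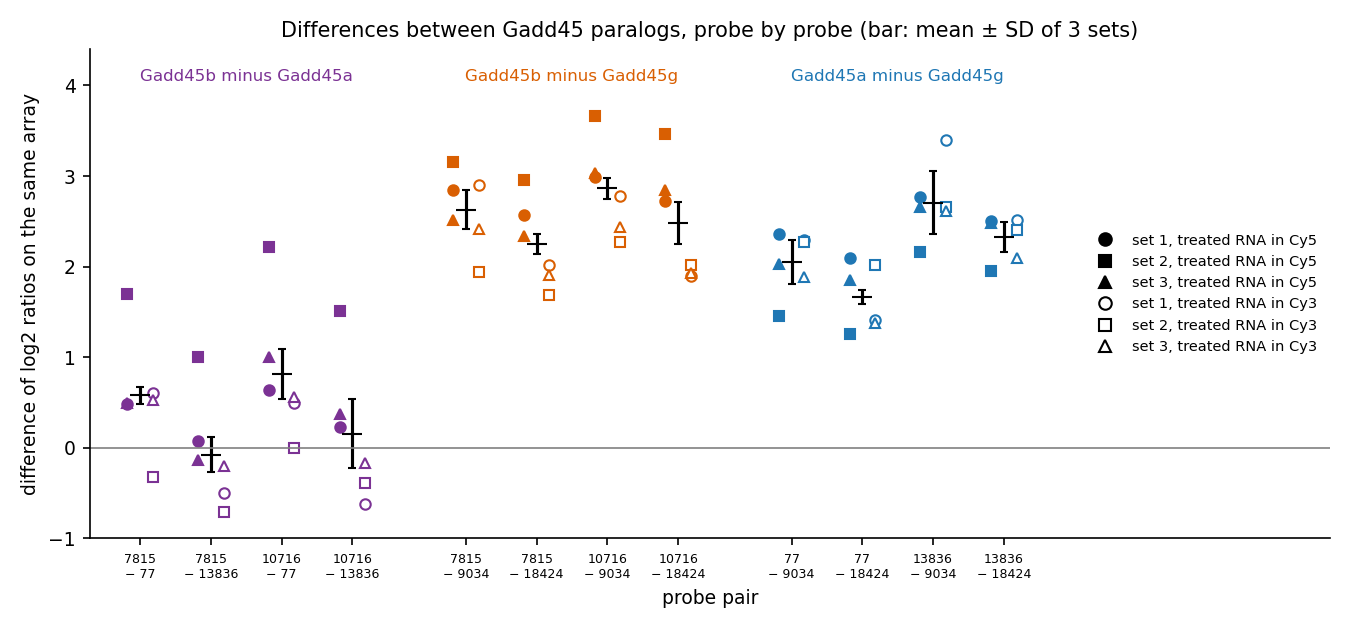
Difference of the log2 ratios of 2 paralogs on the same array (y axis) for every pair of their probes (x axis, probe numbers). Symbols are as in the plot of the probes by array, and bars are the mean ± SD of 3 sets. All points of the pairs with Gadd45g lie at or above 1.25, while the points of Gadd45b minus Gadd45a lie on both sides of 0, between -0.71 and 2.21.

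The genes most like each member were found as those with the smallest root mean square difference over the 6 arrays among 9472 named genes. For Gadd45a these were Ifit3, an interferon-induced antiviral gene (difference 0.16, mean 1.93), Hcar2, a receptor of hydroxy acids (0.21, mean 1.95), and the anti-inflammatory cytokine gene Il10 (0.24, mean 2.06). For Gadd45b they were Tnfaip2 (0.24, mean 2.15), Tnf, the gene of the inflammatory cytokine (0.27, mean 2.15), and Slfn2 (0.32, mean 2.59). Few genes lay close to these members: 4 were within 0.3 of Gadd45a and 2 within 0.3 of Gadd45b. For Gadd45g the nearest were Eif2ak4, Pard6g and Septin8, at 0.05 to 0.06, but 3468 genes lay within 0.3 of it, as most transcripts changed little.

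Genes around the GADD45 proteins were described through 6 lists, together 66 genes tested, of which 22 rose and 17 fell. Without set 3, the count was 14 higher and 5 lower. For comparison, 7.35% of all features rose and 7.45% fell with all sets, and the median of all features was -0.0041. Without set 3, calls were fewer over the whole array too, 352 higher and 211 lower of 11231 features, against 826 and 837 with all sets. The counts without set 3 in the lists below stand beside that general loss. The lists were put together with earlier results of these data known, so their share of changed genes is a description.

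In the MAP kinase module that GADD45 proteins act on, 3 genes rose, 3 fell and 6 did not pass among 12 tested, with a median of -0.01. Map3k4, the direct kinase partner, fell 1.21-fold (-0.28 ± 0.03, limma adjusted p = 0.00969, lower on 6 of 6 arrays). Mapk14, the gene of p38α, fell 1.41-fold (-0.50 ± 0.07, adjusted p = 0.00148, lower on 6 of 6 arrays). Its call ended with zeros kept (-0.48, adjusted p = 0.168). Mapkapk2, which encodes a kinase that p38 activates, rose 1.36-fold (0.45 ± 0.05, adjusted p = 0.00176, higher on 6 of 6 arrays). Map3k5, another kinase upstream of p38 and JNK, fell, and Mapk11, the gene of p38β, and Map2k4, a JNK kinase, rose. Both probes of Map3k4 lay close together (-0.29 and -0.28), but without set 3 its adjusted p was 0.123. On the forward arrays alone its adjusted p was 0.0627 and on the swapped arrays alone 0.0825. Map3k5 and Mapk11 also lost their calls without set 1 (0.123 and 0.0851), with zeros kept (0.477 and 0.168) and on the forward arrays alone (0.0724 and 0.234), and Mapk11 with no replicate block (0.0528). That of Map3k5 ended on the swapped arrays alone (0.313) and with features of at least 4 arrays (0.0538) as well. The calls of Map3k5, Mapk11 and Map2k4 ended without set 3 too, which left 1 gene higher and 1 lower. Map2k4 also lost its call without set 1 or set 2, with zeros kept and on the forward arrays alone. Its call ended as well with centred and scaled arrays and with features of at least 4 arrays. Map2k7, a kinase that GADD45B binds, was not analysed here.

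Of the cell cycle partners and G2/M kinases, 1 gene rose, 4 fell and 4 did not pass among 9 tested, with a median of -0.17. Cdkn1a, the gene of p21, rose 1.70-fold (0.76 ± 0.10, limma adjusted p = 0.000394), higher on 6 of 6 arrays. Its 3 probes ranged from 0.28 to 1.07. Chek2, a checkpoint kinase gene, fell 1.47-fold (-0.56 ± 0.05, adjusted p = 0.000732, lower on 6 of 6 arrays). Wee1, the gene of the kinase that restrains CDK1, stood at -0.37 ± 0.08, and Cdc25b, that of a phosphatase that releases it, at -0.25 ± 0.11. Both were lower on 6 of 6 arrays and passed (limma adjusted p = 0.00553 and 0.0338). The call of Cdc25b ended when any set was left out (adjusted p from 0.0529 to 0.203), on the forward or the swapped arrays alone (0.219 and 0.0996), with zeros kept (0.122), with its probe of largest mean (0.0519) and with no replicate block (0.0506). That of Wee1 ended without set 3 (0.0606), in either orientation alone (0.0666 and 0.057) and with zeros kept (0.0512). Chek1 passed at -0.29 ± 0.11, but its arrays ran from -1.29 to 0.54 and its mean was 0.065 on the swapped arrays alone. Its call ended with the set as a random replicate block on single arrays (adjusted p = 0.322) and with no replicate block (0.361). Cdk1, the kinase that GADD45 proteins bind, stood at -0.06 ± 0.01 (adjusted p = 0.445). Pcna and Ccnb1 were not tested here. Without set 3 the calls of Wee1, Cdc25b and Chek1 ended, and 1 gene of the list rose and 1 fell.

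The list of p53 and its target genes had 8 higher, 5 lower and 8 other genes among 21 tested, and a median of 0.03. Fas, the death receptor gene, rose 5.69-fold (2.51 ± 0.23, limma adjusted p = 2.33e-05). Btg2, which encodes an antiproliferative protein, rose 2.05-fold (1.04 ± 0.17, adjusted p = 0.000339). Mdm2, whose product degrades p53, rose 1.51-fold (0.60 ± 0.09, adjusted p = 0.000876). These 3 genes were higher on 6 of 6 arrays, and with Cdkn1a they had the largest rises of the list. The falls were of genes such as Xpc, a DNA damage sensor of excision repair (-0.43 ± 0.02, adjusted p = 0.00169), Phlda3 and Ddb2. The classical targets Ccng1 (-0.03 ± 0.02), Pmaip1 (0.05 ± 0.07) and Sesn2 (-0.05 ± 0.14) did not pass, and these and Phlda3 and Ddb2 were named after their values were seen. Without set 3 the list had 4 higher and 1 lower genes. The lower one was Xpc (adjusted p = 0.0338), and the calls of Phlda3 and Ddb2 ended. On the forward arrays alone the call of Xpc ended (adjusted p = 0.0590). Trp53 itself was not analysed here.

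Among factors described as regulators of Gadd45 genes, 5 rose, 1 fell and 5 did not pass among 11 tested, with a median of 0.16. Myc, whose product is described as a repressor of Gadd45a, rose 10.7-fold (3.42 ± 0.37, limma adjusted p = 2.8e-05). Egr1, an immediate early factor, rose 2.82-fold (1.49 ± 0.14, adjusted p = 4.34e-05) and Atf3, a stress-induced factor, 1.99-fold (0.99 ± 0.24, adjusted p = 0.00104). The call of Atf3 ended with zeros kept (adjusted p = 0.0544). Rela, the NF-κB subunit gene, rose 1.31-fold (0.38 ± 0.06, adjusted p = 0.00381), with adjusted p = 0.0515 without set 3. Rela stood at 0.55 (adjusted p = 0.0202) on the forward arrays alone and at 0.22 (0.150) on the swapped arrays alone. Stat3 also rose. Brca1 fell 1.34-fold (-0.42 ± 0.04, adjusted p = 0.00204). Foxo3, which encodes a forkhead factor that induces Gadd45a, stood at -0.03 ± 0.06 (adjusted p = 0.705). All changed genes of this list had the same sign on 6 of 6 arrays. Without set 3, 3 genes of the list rose and 1 fell.

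Other stress genes had 6 higher, 1 lower and 2 other genes among 9 tested and a median of 0.67. Ppp1r15a and Ddit3 among them were first found with Gadd45a as growth arrest and DNA damage inducible. Ppp1r15a, known as Gadd34, whose product restores translation after stress, rose 1.59-fold (0.67 ± 0.08, limma adjusted p = 0.0005). Ddit3, known as Gadd153 or CHOP, rose 1.40-fold (0.48 ± 0.09, adjusted p = 0.00216). Ier3 rose 3.21-fold (1.68 ± 0.15), Nupr1 2.92-fold (1.55 ± 0.11) and Dusp1, the gene of a MAP kinase phosphatase, 1.68-fold (0.75 ± 0.10). Ddit4, which encodes an inhibitor of mTORC1, fell 1.62-fold (-0.70 ± 0.09, adjusted p = 0.000515). The changed genes had the same sign on 6 of 6 arrays, and without set 3 the list still had 6 higher and 1 lower. With zeros kept it had 5 higher and 1 lower, as the call of Atf3 ended (adjusted p = 0.0544). It also had 5 higher and 1 lower on the swapped arrays alone, where that of Ddit3 ended (0.0686). The rises of the other GADD genes Ppp1r15a and Ddit3 were smaller than those of Gadd45a and Gadd45b.

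Of the DNA demethylation and excision repair partners, 1 rose, 3 fell and 3 did not pass among 7 tested, with a median of -0.13. Ercc1, a nuclease subunit gene, rose 1.29-fold (0.37 ± 0.09, limma adjusted p = 0.00664). Its call ended with zeros kept (adjusted p = 0.0600), where 0 genes of the list rose and 3 fell. Apobec1, a cytidine deaminase gene, fell 1.29-fold (-0.36 ± 0.05, adjusted p = 0.00419). Ercc5, the gene of the repair nuclease XPG (-0.30 ± 0.03, adjusted p = 0.00774), and Ing1, which encodes a chromatin reader that recruits GADD45A (-0.29 ± 0.03, adjusted p = 0.00813), also fell. The arrays of Ercc5 ran from -0.81 to 0.14, with a mean of -0.50 on the forward and -0.10 on the swapped arrays, and its call ended with the set as a random replicate block on single arrays (adjusted p = 0.0535) and with no replicate block (0.0655). Without set 3, 1 gene rose and 0 fell in limma, and none passed in limma on the forward arrays alone. The set 3 calls that ended were those of Apobec1, Ercc5 and Ing1.

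**Figure D4:**
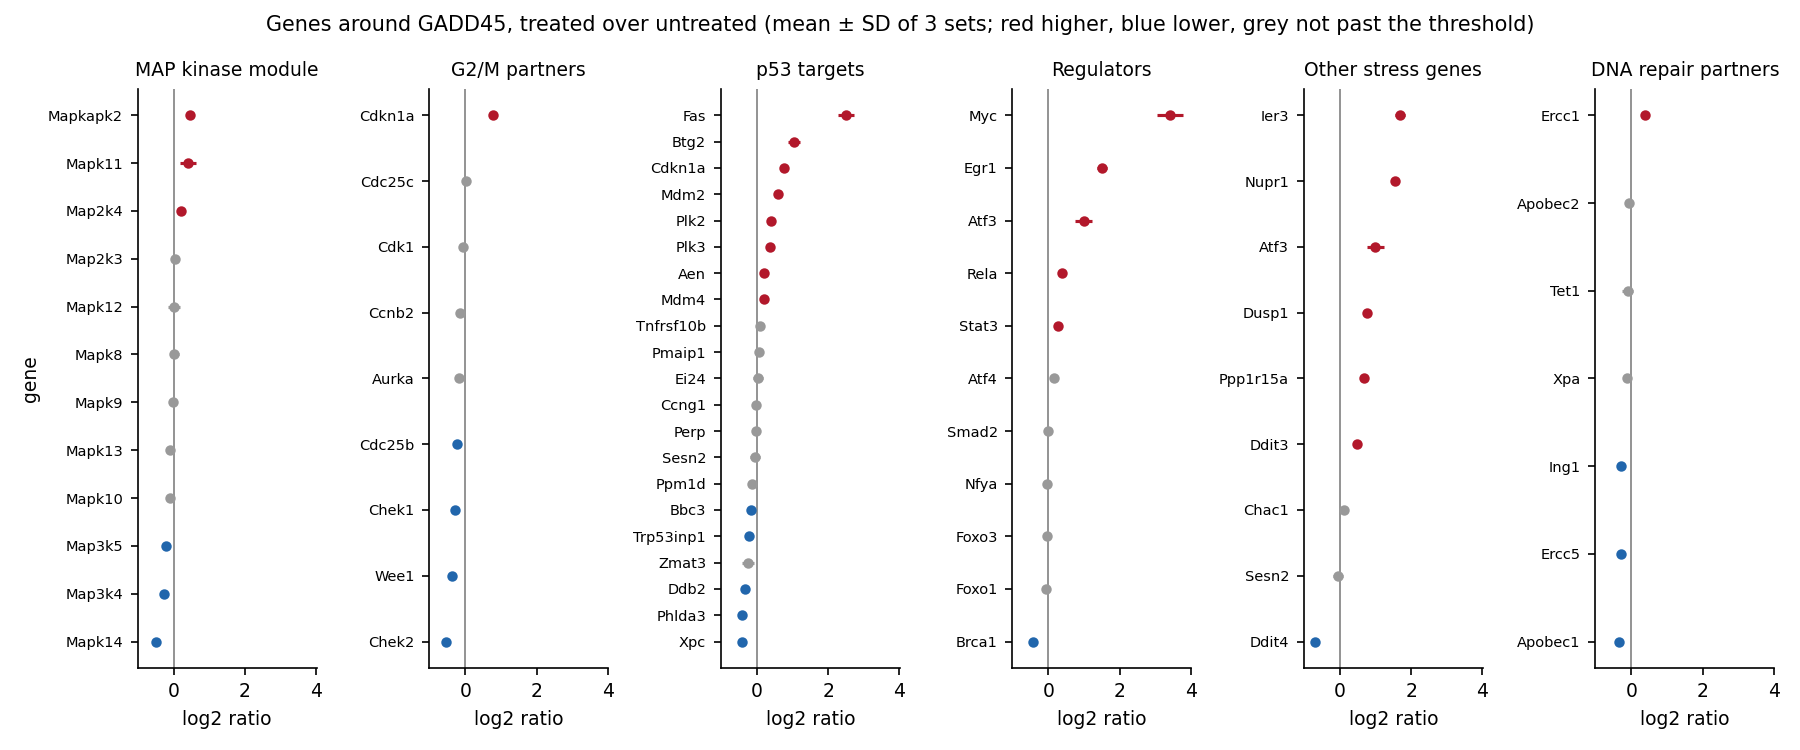
Log2 ratio of treated over untreated (x axis) of the tested genes of the 6 lists around GADD45 (y axis, genes ordered by value within each list). Points are the mean and bars the SD of 3 sets, red for higher, blue for lower and grey for genes not past the threshold. Myc (3.42) and Fas (2.51) are the largest changes, and the MAP kinase module lies between -0.50 and 0.45.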

How the data were processed

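The deposited values, per the labels from 2-colour arrays of total RNA, are log2 ratios of the authors' arrays, 1 per probe and array. The scanner software, background correction and dye normalization are not stated in the sources used. The log base was read from the decimals: 89.9% of non-zero values divided by log2 of 10 ended within 7 decimals. The direction, Cy5 over Cy3, is the likely one from the channel names and was checked on 10 LPS-induced genes, of which all 8 measured on every array turned sign with the dyes. Exact zeros (10.8% of values) were treated as missing. Array medians lay between 0.0028 and 0.016. Without spot brightness, how far a probe stood over background cannot be given. Precision is limited by having 6 arrays.

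Probes were named through the platform annotation, with 13738 holding 1 symbol, 52 several and 2491 none. Of the named probes, 13694 matched RefSeq gene IDs (GRCm38.p6), and 0 symbols changed. Swapped arrays had their sign turned, both arrays of a set were averaged, and limma 3.58.1 (R 4.3.3) tested the 3 set means against 0 (lmFit, eBayes, two-sided), once over probes and once over genes, with Benjamini-Hochberg adjustment over all of them. The fits were tested on simulated data. The sets are paired by their label numbers. Before the turn, same-numbered arrays' deviations correlated across probes with r of 0.41, 0.45 and 0.15. Other pairs had r from -0.43 to 0.036. Deviations of 3 arrays sum to 0, so higher r for same numbers goes with lower r elsewhere. A likeness before the turn follows the channels and has opposite signs after it, so these r do not show a shared response to treatment. The fit with the set as a random replicate block used a within-set correlation of 0.055 for genes and 0.043 for probes. Whether sets were separate cultures was not tested. Probes are not independent replicates. The test of the part that follows the channels was added after the values were seen. The members and the gene lists were chosen with earlier results of these data known. Named genes are all member probes, a fixed set of partners, up to 5 genes with the largest changes past the threshold in each list, and the 3 genes nearest to each member.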

Additional observations from a re-analysis of the deposited data

Results flagged for a closer look

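Gadd45g probe 18424 stood out because it was below 0 on every array that had treated RNA in Cy5 and above 0 on every array that had it in Cy3. The mean of the first orientation less that of the second was -0.52. The test of that contrast, as the part of the ratio that follows the channels, gave adjusted p = 0.165 over all probes in limma, so it did not pass, and 13.9% of complete probes showed the same pattern of signs in one direction or the other. No other Gadd45 probe did.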

How the results depend on the processing

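Gadd45a, Gadd45b and their 4 probes kept direction and call under every alternative. Averaged Gadd45g lost its call with centred and scaled arrays (-0.19, adjusted p = 0.0522), with features of at least 4 arrays (-0.18, 0.0603), with the set as a random replicate block on single arrays (-0.18, 0.0620), with no replicate block (-0.18, 0.0739), with the treated RNA in Cy5 only (-0.35, 0.0764) and in Cy3 only (0.0015, 0.991), and without any set (-0.18 to -0.17). Its probe 9034 lost it with zeros kept (-0.37, 0.0576), in Cy3 only (-0.27) and without set 3 (range over sets left out -0.40 to -0.32). Probe 18424 was -0.25 in Cy5 only and ranged from -0.034 to 0.055 as sets were left out. The block ended no other call of a Gadd45 gene or probe, but among the named genes it ended those of Chek1 (0.322) and Ercc5 (0.0535). Gadd45b less Gadd45a was 0.80 in Cy5 only and -0.061 in Cy3 only. Gadd45b less Gadd45g was 2.93 and 2.18 there and 2.86 with the probe of largest mean, and Gadd45a less Gadd45g was 2.71 with that probe. Features past the threshold numbered 1663, but 962 with zeros kept, 639 in Cy5 only, 655 in Cy3 only and 563 to 1685 as sets were left out. List genes past it numbered 39, but 25, 22, 24 and 19 to 35 under the same settings. Foxo3 stood at 0.014 in Cy5 only and from -0.054 to 0.00046 as sets were left out, and Chek1 at 0.065 in Cy3 only. The causes were not tested. Fewer arrays enter the single-orientation and set-wise fits.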
